A study of Bos taurus with 56 samples.

Results

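RNA levels of 10 marker genes of immune cells were followed in epithelial cells scraped from the oviduct of dairy cattle. The genes were PTPRC, a marker of leukocytes in general, CD68, CSF1R, CD163, C1QA, C1QB and C1QC, markers of macrophages, and CD3E, CD2 and CD8A, markers of T cells. They were picked by their gene symbols from the deposited read count table, which held all 10 of them among its 31903 genes. All 10 also passed the filter on low counts over the whole set of libraries, together with 16060 genes in all.

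The study compared Holstein animals in 3 metabolic states, namely 5 nulliparous heifers, 5 post-partum non-lactating cows that were never milked after calving, and 4 post-partum lactating cows. The cows were about 60 days post-partum. All animals had their estrus synchronised with a progesterone device, prostaglandin and buserelin, and all were slaughtered on Day 3 after estrus, so that the groups share this treatment. Cells were gently scraped from the ampulla and the isthmus, each on the side of the corpus luteum (CL, ipsilateral) and on the other side (contralateral), which gave 56 libraries from 14 animals, 1 per animal and tissue. Animals are named here by their metabolic group and a letter.

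Between 1901454 and 6836850 reads per library were counted on genes, with a median of 4931502.5, and levels are given as CPM, the read count scaled to a fixed normalised library size. In 52 libraries the expression profile matched the other libraries of the same animal best, at r of 0.595 or more over the 200 genes that differed most between animals. These genes were picked with the animal numbers in the column names of all libraries but the ipsilateral ampulla ones. Only in that tissue was the match therefore independent of the choice of genes. The other 4 were ipsilateral ampulla libraries. The library labelled heifer B matched non-lactating cow B better than its own animal, and the reverse held for the library labelled non-lactating cow B (r of 0.694 and 0.60, against 0.131 and 0.218 with their own), and those of non-lactating cow C and lactating cow B carried each other's animal numbers in the table while their profiles matched the groups of their labels. All 4 were kept in the groups of their labels, also in the means per animal, and were left out of the counts of animals within which regions or ampulla sides differed.

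Leukocytes live within and beneath the epithelium of the female tract, where they survey for infection and must also tolerate semen and the early embryo. Macrophages clear dying cells and debris, and they are a main local source of C1q, the recognition molecule that starts the classical complement pathway. T cells of mucosal epithelia are largely of the CD8 type. RNA from a scraped cell layer mixes all cells collected, so that fewer immune cells and less RNA of a gene per immune cell cannot be told apart in these data.

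The preparations carried the RNA of an oviduct epithelium. EPCAM, an adhesion molecule of epithelial cells, lay between 165 and 342 CPM in the ampulla and between 302 and 518 CPM in the isthmus, and FOXJ1, the regulator of motile cilia, had medians of 317 and 217 CPM. Beta- and alpha-globin (HBB and HBA) had no read in any of the 56 libraries. Markers of B cells were close to 0, with MS4A1 at 0 in 21 of 28 ampulla and 27 of 28 isthmus libraries. Among genes of smooth muscle, MYH11, a myosin, had a median of 29.6 CPM in the isthmus and 1.03 CPM in the ampulla, while ACTA2, an actin, had 8.21 and 11.6 CPM and DES, the filament protein desmin, 1.23 and 2.76 CPM. KDR, a receptor of endothelial cells, had medians of 20.4 CPM in the isthmus and 154 CPM in the ampulla. Other endothelial genes were lower and differed less between the regions, with PECAM1 at 2.39 and 4.86 CPM and VWF at 4.10 and 4.70 CPM.

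Every immune marker was read in these preparations, but at low counts. PTPRC, CSF1R, C1QA and C1QB had at least 7 reads in each of the 56 libraries. CD163 had a median of 2.5 reads and 3 reads or fewer in 36 libraries, and CD8A had a median of 6.5 reads and 3 or fewer in 16. CD163 was at 0 in 10 libraries, CD8A in 3, CD3E in 2 and CD2 in 1. The value of 3 reads depends on the depth of the library. It ran from 0.445 CPM in the ipsilateral isthmus library of non-lactating cow C to 1.55 CPM in the contralateral isthmus library of non-lactating cow B. Levels at or below the value of 3 reads in their own library are near the limit that the depth allows. When the 12 conditions (metabolic group, region and side) were ordered by their mean, the ranges of neighbouring conditions overlapped in all 11 neighbouring pairs for each of the 10 genes, and no step between neighbours exceeded their SD. The order of the conditions was therefore not resolved for any of the markers. No marker passed the main test between regions or sides, which did not pair the libraries of an animal. The genes whose values are printed library by library below were therefore chosen after their values were seen. With the animal as a block, C1QA, C1QC and CD8A were called between the ipsilateral regions and C1QB between the ampulla sides. These calls and their limits are given below.

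**Figure D1:**
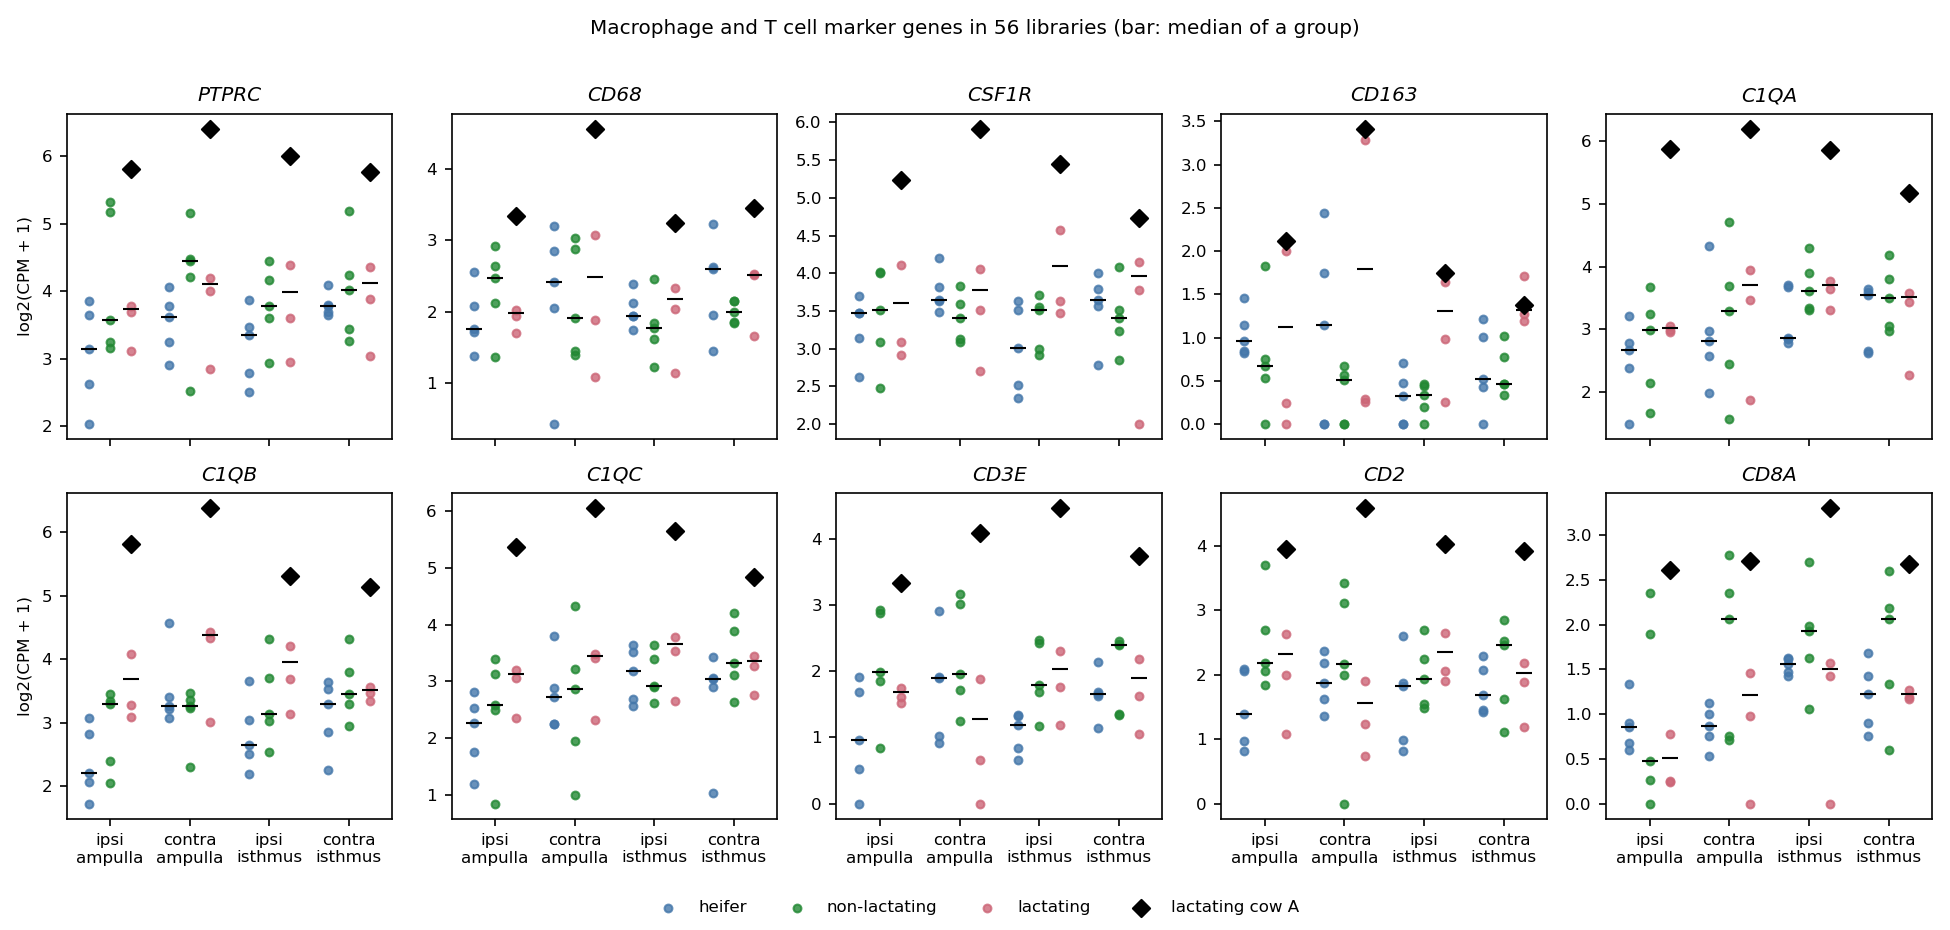
Level of each of the 10 markers, as log2(CPM + 1), in every library of the 4 tissues, 1 point per library coloured by metabolic group, with a bar at the median of each group and a diamond for lactating cow A. The diamonds lie at the top of most panels, for PTPRC at 55.2, 83.8, 63.1 and 53.3 CPM from left to right.

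PTPRC encodes CD45, the phosphatase on the surface of all nucleated blood-derived cells. Its mean was lowest in the ipsilateral ampulla of heifers, at 8.22 ± 4.33 CPM (SD, n = 5), and highest in the contralateral ampulla of lactating cows, at 30.6 ± 35.8 CPM (n = 4). In that latter tissue the 4 libraries stood at 83.8, 6.19, 15.1 and 17.4 CPM for lactating cows A, B, C and D. The mean was thus set by cow A, and the other lactating cows lay in or close to the range of the heifers, which were at 8.51, 15.7, 11.3, 12.8 and 6.51 CPM. The non-lactating cows A to E were at 17.5, 4.75, 21.4, 34.6 and 20.8 CPM.

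The same animals stood out for PTPRC in the other tissues. In the ipsilateral ampulla the heifers A to E were at 5.17, 3.09, 11.5, 13.5 and 7.82 CPM, the non-lactating cows at 7.96, 8.48, 10.9, 35.0 and 38.8 CPM, and the lactating cows at 55.2, 7.70, 12 and 12.8 CPM. In the ipsilateral isthmus the heifers were at 9.24, 10.04, 4.68, 13.6 and 5.88 CPM, the non-lactating cows at 6.68, 12.7, 11.1, 20.7 and 16.9 CPM, and the lactating cows at 63.1, 6.76, 11.1 and 19.8 CPM. In the contralateral isthmus the heifers were at 12.8, 11.6, 11.9, 16.1 and 13 CPM, the non-lactating cows at 8.63, 9.84, 17.8, 35.5 and 15.2 CPM, and the lactating cows at 53.3, 13.7, 7.27 and 19.5 CPM. Lactating cow A was highest in all 4 tissues and non-lactating cows D and E were high in several, while the ranges of the 3 metabolic groups overlapped in each tissue.

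The chains of C1q, a secreted protein assembled from the products of C1QA, C1QB and C1QC, followed the same animals. These 3 genes lie next to each other in the bovine genome (RefSeq annotation of ARS-UCD2.0). C1QB ranged from 2.31 to 82.2 CPM over the 56 libraries, with a median of 8.83 CPM. In the ipsilateral ampulla, C1QB was at 3.18, 2.31, 6.09, 7.47 and 3.62 CPM in the heifers, at 4.26, 3.16, 9.14, 8.88 and 9.98 CPM in the non-lactating cows, and at 55.1, 7.51, 15.9 and 8.76 CPM in the lactating cows. All 4 lactating cows lay above all 5 heifers there, although cow B was above the highest heifer by less than the value of 1 read. This held for 1 of the 10 markers in that tissue, and the share of all genes for which it held was not counted. In the contralateral ampulla C1QB was at 7.48, 9.6, 8.62, 8.30 and 22.9 CPM in the heifers, at 8.61, 3.96, 10.1, 8.39 and 9.27 CPM in the non-lactating cows, and at 82.2, 7.07, 20.7 and 19.1 CPM in the lactating cows. The contralateral ampulla library of heifer E, high for C1QB, was also the highest of 14 animals for 19.9% of the 16060 genes in that tissue. In the isthmus C1QB was between 3.59 and 19.1 CPM in the heifers and non-lactating cows of both sides, and in the lactating cows at 38.7, 7.82, 11.9 and 17.5 CPM ipsilaterally and 34.1, 9.13, 10.1 and 10.8 CPM contralaterally.

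C1QA and C1QC had their highest values in the same cow. In lactating cow A, C1QA was at 57.7, 72.7, 57.0 and 35.3 CPM in the ipsilateral and contralateral ampulla and the ipsilateral and contralateral isthmus. In the other 13 animals it lay between 1.80 and 25.2 CPM in those tissues. C1QC was at 40.2, 65.6, 49.5 and 27.7 CPM in cow A and between 0.789 and 19.2 CPM in the others. The groups of heifers and non-lactating cows overlapped for both genes in each tissue.

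CSF1R, the receptor for the macrophage growth factors CSF1 and IL34, had condition means of 7.51 ± 3.27 CPM (SD, n = 5, ipsilateral isthmus of heifers) to 22.7 ± 24.8 CPM (n = 4, contralateral ampulla of lactating cows). It was at 36.8, 59.4, 42.7 and 25.5 CPM in lactating cow A, and the highest value in any other library was 22.8 CPM, in the ipsilateral isthmus of lactating cow D. CD68, a protein of the lysosomes of macrophages, was at 9.12, 22.8, 8.45 and 9.98 CPM in cow A and between 0.334 and 8.44 CPM elsewhere. CD163, the macrophage receptor that takes up haemoglobin bound to haptoglobin, was at 9.67 CPM in cow A and 8.78 CPM in lactating cow D in the contralateral ampulla, and at 0.193 to 0.221 CPM in lactating cows C and B there. For CD163 it was thus 2 of 4 lactating cows, not 1, that were high in that tissue.

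CD3E, a signalling chain of the T cell receptor complex, was lowest in the ipsilateral isthmus of heifers, at 1.14 ± 0.433 CPM (SD, n = 5), and highest in the same tissue of lactating cows, at 7.15 ± 9.32 CPM (n = 4). The heifers there were at 1.54, 1.51, 0.585, 1.27 and 0.785 CPM, the non-lactating cows at 1.26, 2.46, 2.22, 4.40 and 4.56 CPM, and the lactating cows at 21.0, 1.27, 2.38 and 3.93 CPM. Lactating cow A again exceeded all others, and the other lactating cows lay within the range set by the heifers and non-lactating cows. CD2, the T cell receptor for the adhesion protein CD58, was at 14.4, 23.0, 15.3 and 14.2 CPM in cow A, and its next highest value was 12 CPM in the ipsilateral ampulla of non-lactating cow E.

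CD8A, the co-receptor chain of cytotoxic T cells, had a narrow range in the ipsilateral isthmus of heifers, at 2.05, 2.08, 1.95, 1.69 and 1.77 CPM. The ipsilateral ampulla of the same group was at 0.596, 0.514, 0.870, 0.808 and 1.53 CPM, so that both ranges did not overlap. The share of all genes that separated in this way was not counted, and 50.3% of all genes were called between these regions over the 3 metabolic groups. In the non-lactating cows the ipsilateral isthmus was at 1.08, 2.08, 2.82, 5.50 and 2.95 CPM and the ipsilateral ampulla at 0, 0.395, 0.199, 4.10 and 2.72 CPM. In the lactating cows these tissues were at 8.85, 1.69, 0 and 1.97 CPM and at 5.09, 0.188, 0.187 and 0.71 CPM. The ranges of both tissues overlapped in these groups. A value of 0 allows a level up to that of 3 reads, and most of the ampulla values lie at or under that level.

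The markers differed between animals more than most genes did. The share of the variance of log2 CPM that lay between animals, after each gene was centred on its condition, was 77.3% for PTPRC, 75.0% for C1QB, 72.9% for CD8A, 68.9% for CD3E and 66.5% for CSF1R, against a median of 34.2% over all genes that passed the filter. CD163 had the smallest share, at 43.5%. Without lactating cow A the shares were 65.1% for PTPRC, 61.6% for C1QB, 62.0% for CD8A and 38.7% for C1QA (61.3% with it), beside a median of 33.3%. Samples of 1 animal are not independent, and these shares are given without a test.

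Lactating cow A was the highest of the 14 animals for 10 of 10 markers in the ipsilateral ampulla, 9 of 10 in the contralateral ampulla, 10 of 10 in the ipsilateral isthmus and 9 of 10 in the contralateral isthmus. Over the 16060 genes it was the highest for 8.67, 8.72, 11 and 7.53% in the same order. The exceptions were CD8A, which in the contralateral ampulla was at 5.86 CPM in non-lactating cow E and 5.53 CPM in cow A, and CD163, which in the contralateral isthmus was at 2.28 CPM in lactating cow B and 1.60 CPM in cow A. It was highest in all 4 tissues for 8 of the 10 markers and for 296 of 16060 genes (1.84%). The summed level of the 10 markers in cow A was 6.02, 7.68, 5.16 and 3.31 times the median of the other 13 animals in the 4 tissues.

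Among the other animals, non-lactating cow E was among the first 3 by mean level for 8 of the 10 markers, non-lactating cow D for 6 and lactating cow D for 3. Non-lactating cow B was among the last 3 for 7 markers. Relative to the median animal, non-lactating cow D had 2.92-fold PTPRC and 3.33-fold CD8A but 1.12-fold CSF1R and 0.907-fold CD68, and non-lactating cow E had 2.62-fold CD3E and 2.85-fold CD2 but 1.21-fold CSF1R and 1.31-fold CD68. Cow A had 5.92-fold PTPRC, 6.62-fold CD3E and 6.55-fold C1QC, so its T cell and macrophage markers were both high. The other macrophage markers of non-lactating cows D and E were mixed. C1QA was at 1.65-fold in cow D and 1.36-fold in cow E, and C1QC at 1.54-fold and 1.53-fold. C1QB was above the median animal in cow D and at 0.89-fold in cow E. CD163 was at 0.46-fold and 0.642-fold. The T cell markers of non-lactating cows D and E were further above the median animal than any macrophage marker was. This is a description of these animals and was not tested.

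**Figure D2:**
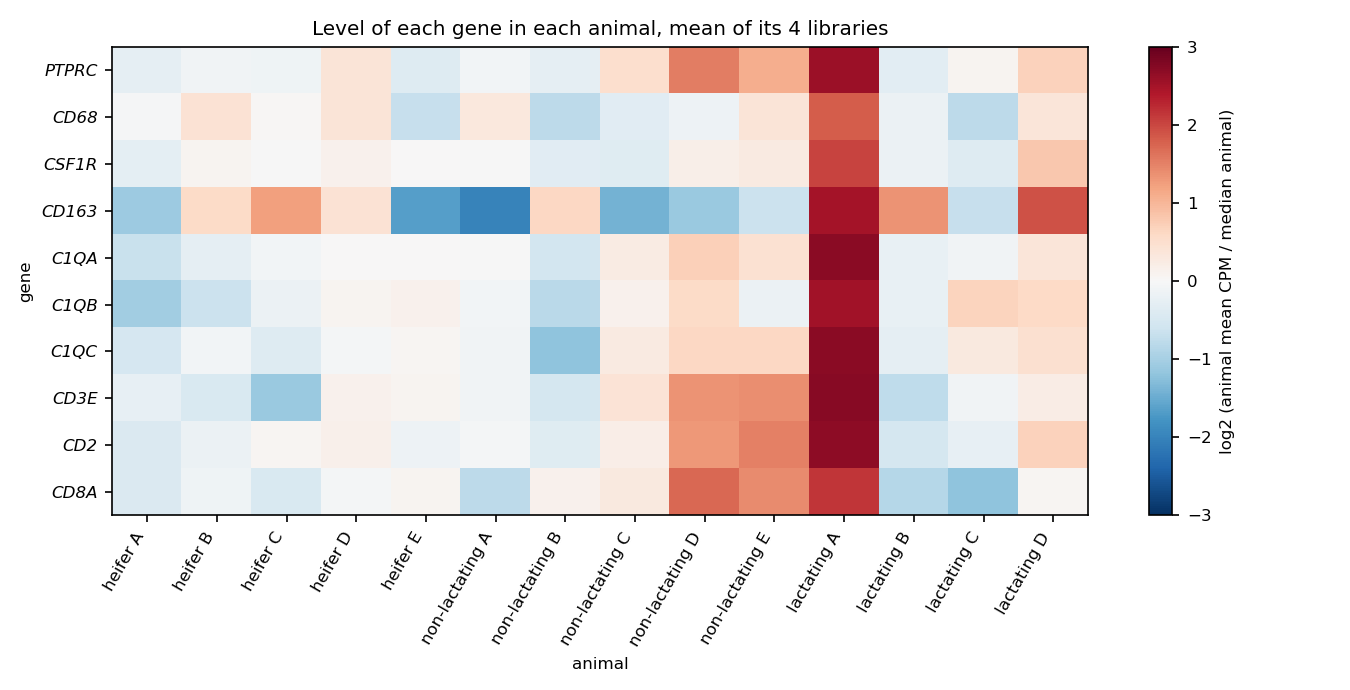
Mean level of each marker (rows) in each of the 14 animals (columns) over its 4 libraries, as the log2 ratio to the median animal, in colour. Lactating cow A is the darkest column, between 3.52-fold (CD68) and 6.62-fold (CD3E) over the median animal.

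Other immune genes of lactating cow A were examined through lists of markers. Of the genes with a read, it was the highest animal in at least 3 of 4 tissues for 18 of 23 pan-leukocyte genes, 15 of 27 T cell genes, 14 of 29 macrophage or monocyte genes, 7 of 13 dendritic cell genes and 4 of 14 B or plasma cell genes. The count was 0 of 8 for epithelium, 0 of 11 for ciliated cells, 0 of 7 for smooth muscle, 0 of 8 for fibroblasts and 0 of 8 for endothelium. Over all genes that passed the filter, it was the highest in at least 3 tissues for 620 of 16060 (3.86%). The lists partly share genes with each other, and they do not include the 10 markers. These counts describe 1 animal.

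The values behind these counts are means of the 4 tissues. IL7R, the survival receptor of T cells, was at 23.0 CPM in cow A and at a median of 1.76 CPM in the other animals, and CD3D, another chain of the T cell receptor complex, at 16.1 and 1.56 CPM. AIF1, a macrophage protein, was at 17.3 and 2.74 CPM, and MPEG1, a pore-forming protein of phagocytes, at 82.2 and 15.8 CPM. These immune genes were high together in cow A. The chemokines that attract activated T cells were further apart, with CXCL10 at 114 and 2.41 CPM, CXCL9 at 13.3 and 0.154 CPM and CCL5 at 76.6 and 5.59 CPM. IGJ, the joining chain of secreted antibodies, was at 152 and 8.77 CPM, and LTF, the secreted iron-binding protein lactoferrin, at 2024 and 321 CPM. The epithelial genes were not higher in this cow, with EPCAM at 256 and 296 CPM and FOXJ1 at 249 and 276 CPM. Genes of the tissue beneath the epithelium were mixed in cow A. LUM, a matrix protein of fibroblasts, was at 90.5 and 5.13 CPM, and KDR at 181 and 77.0 CPM. DCN of the fibroblast list was also higher (7.43 and 1.12 CPM), while COL6A3 of that list (15.2 and 17.8 CPM) and TEK of the endothelium list (11.7 and 13.6 CPM) were lower. The summed fibroblast list was 1.02 and 0.999 times the median of the other animals in the ipsilateral and contralateral ampulla. In the isthmus it was 1.93 and 7.62 times that median. The part of such genes in the levels of the markers was not tested.

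The metabolic groups were compared tissue by tissue, which asks whether lactation or calving history went with a different level of immune cell RNA. No marker was called in any of the 12 comparisons (edgeR's quasi-likelihood F test, Benjamini-Hochberg adjusted p under 0.05 over all genes tested). Nearly no other gene was called either. The share of all genes called was 0% in 11 of these comparisons and 0.0073% in the remaining one, which set non-lactating cows against heifers in the isthmus on the CL side.

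Between lactating cows and heifers all tested markers had higher means in the lactating cows. In the ipsilateral isthmus the 7 markers that passed the filter had a median log2 fold change of 1.48, beside 0.00906 over all genes tested. An unadjusted p under 0.05 was found for 6 of them, beside 10.4% of all genes. The largest was PTPRC, at a log2 fold change of 1.58 ± 0.57 (SE, adjusted p = 0.382), and the smallest adjusted p was that of CSF1R (1.56 ± 0.45, adjusted p = 0.316). In the ipsilateral ampulla the median of 8 tested markers was 1.58, beside 0.00269 over all genes, with C1QB highest at 2.27 ± 0.57 (adjusted p = 0.515). In that tissue 5 markers had an unadjusted p under 0.05, beside 7.15% of all genes. On the contralateral side the median was 0.85 for 7 markers in the isthmus, with none at an unadjusted p under 0.05, and 1.51 for 9 markers in the ampulla, with 3. Of all genes 10.7% in the isthmus and 4.73% in the ampulla were under that value on this side. DESeq2 called CSF1R (1.57 ± 0.45, adjusted p = 0.0489) and CD3E (2.70 ± 0.75, adjusted p = 0.0398) in the ipsilateral isthmus, where it called 1.08% of all genes, and C1QB in the ipsilateral ampulla (2.28 ± 0.54, adjusted p = 0.0389), where it called 0.121%. It called no marker in either contralateral tissue.

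The size of these differences depended on lactating cow A. Without it, the median log2 fold change between lactating cows and heifers went from 1.48 to 0.565 in the ipsilateral isthmus, from 1.58 to 0.536 in the ipsilateral ampulla, from 0.85 to -0.0528 in the contralateral isthmus and from 1.51 to 0.195 in the contralateral ampulla. In absolute size, all markers were smaller without it in the first 3 of these, and 8 of 9 in the last. The exception there was CD3E, which changed direction, from 0.808 to -1.3. C1QB kept the widest difference in the ipsilateral ampulla, at a log2 fold change of 1.23 ± 0.40 without cow A (adjusted p = 0.995). CSF1R in the ipsilateral isthmus was at 0.99 ± 0.38 (adjusted p = 0.683). With 3 lactating cows left, 6 of 7 markers were higher than in heifers in the ipsilateral isthmus, 7 of 8 in the ipsilateral ampulla, 5 of 9 in the contralateral ampulla and 3 of 7 in the contralateral isthmus. Here and below, the fit without cow A is given because that cow was highest for most markers. A fall in the fold changes was therefore fixed by this choice, and only its extent is described.

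**Figure D3:**
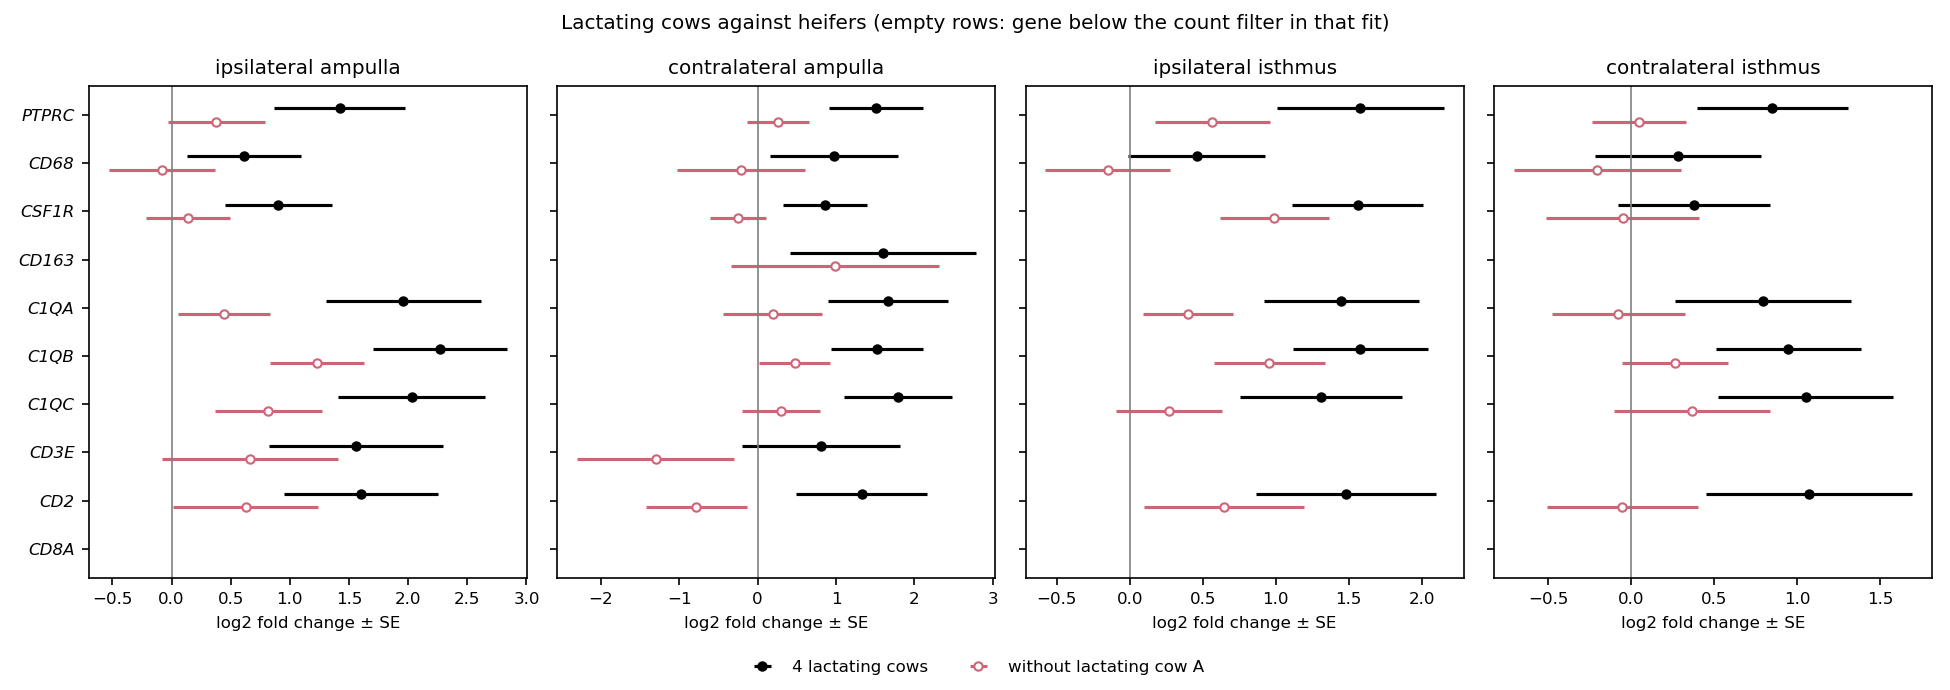
Log2 fold change between lactating cows and heifers (positive: higher in lactating cows) for each tested marker in the 4 tissues, with all 4 lactating cows (filled) and without lactating cow A (open), with bars for the SE. C1QB in the ipsilateral ampulla moves from 2.27 to 1.23 and PTPRC in the contralateral ampulla from 1.51 to 0.26.

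Between lactating and non-lactating cows most tested markers also had higher means in the lactating cows, and these differences again rested on cow A. The median log2 fold change was 0.919 in the ipsilateral isthmus (9 markers, 2 at an unadjusted p under 0.05), 0.478 in the contralateral isthmus (9 markers, none), 0.427 in the ipsilateral ampulla (8 markers, 3) and 1.12 in the contralateral ampulla (9 markers, 2). Of all genes 6.26, 3.94, 3.57 and 5.06% had an unadjusted p under 0.05, in the same order. Without cow A the medians of the markers were 0.111, -0.394, -0.34 and -0.22. C1QB in the contralateral ampulla was the widest of the tested markers, at 2.0 ± 0.52 (adjusted p = 0.932). CD163 did not pass the filter there. Without the filter on low counts C1QB was called there (2.01 ± 0.42, adjusted p = 0.0486), with 0.0737% of all genes called, CD163 was wider but not called (3.78 ± 1.09, adjusted p = 0.332), and DESeq2 called no marker in these 4 comparisons.

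Non-lactating cows differ from heifers by having calved, and neither group was milked. The median log2 fold change was 0.474 for 8 markers in the ipsilateral isthmus, 0.412 for 7 in the contralateral isthmus, 0.6 for 8 in the ipsilateral ampulla and 0.337 for 8 in the contralateral ampulla. In the ipsilateral ampulla all 8 were higher in the non-lactating cows, and 3 had an unadjusted p under 0.05, namely PTPRC (1.28 ± 0.49), CD3E (1.52 ± 0.67) and CD2 (1.42 ± 0.51), each at an adjusted p of 0.999. PTPRC in the contralateral ampulla was the only other one (0.88 ± 0.40, adjusted p = 0.999). Of all genes 3.63% in the ipsilateral and 4.35% in the contralateral ampulla had an unadjusted p under 0.05. In the isthmus the shares were 11.8% ipsilaterally and 9.18% contralaterally. In the ipsilateral ampulla, the libraries labelled heifer B and non-lactating cow B matched each other's animal better than their own. Both were kept under their labels in this comparison, and no alternative fit of it called a marker. PTPRC, CD3E and CD2 are genes for which non-lactating cows D and E were the high animals. DESeq2 called no marker in these 4 comparisons either.

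The isthmus was compared with the ampulla over all 14 animals, with the metabolic group as a term. On the ipsilateral side 50.3% of 15276 genes were called and none of the 10 markers, and the median log2 fold change of the markers was 0.00915, beside -0.02 over all genes. The means of 5 markers were higher and those of 5 lower in the isthmus. CD163 was lower in the isthmus by the widest margin, with a log2 fold change of -1.25 ± 0.53 (adjusted p = 0.0523). It was the only marker with an unadjusted p under 0.05, beside 55.5% of all genes. CD8A was at 1.0 ± 0.50 (adjusted p = 0.0978), C1QC at 0.65 ± 0.34 (adjusted p = 0.121) and C1QA at 0.59 ± 0.34 (adjusted p = 0.149).

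These ipsilateral values changed sides of the threshold with the animals and the fit. With the animal as a block, which the design allows because every animal gave both regions, C1QA (0.71 ± 0.19, adjusted p = 0.0035), C1QC (0.71 ± 0.22, adjusted p = 0.0101) and CD8A (1.26 ± 0.33, adjusted p = 0.00352) were called as higher in the isthmus, beside 51.4% of all genes. When the 4 mismatched libraries were also left out, C1QA (0.56 ± 0.17, adjusted p = 0.0132) and C1QC (0.53 ± 0.19, adjusted p = 0.0338) were called and CD8A was not (0.85 ± 0.35, adjusted p = 0.059), beside 44.7%. Without lactating cow A the unblocked fit called the same 3 genes, C1QA, C1QC and CD8A, with an adjusted p of 0.00449, 0.0209 and 0.0334, beside 49.7%. DESeq2 called CD163 (-1.40 ± 0.58, adjusted p = 0.0379), beside 41.7%. CD163 was also called in the fits that left out non-lactating cow A, lactating cow C or lactating cow D, where 48.5, 47.7 and 48.8% of all genes were called. In each of these fits the share of markers called, at most 3 of 10, was below that of all genes.

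Within animals the same genes gave the most uniform directions. Among the 10 animals with matched ipsilateral libraries, C1QC and CD8A were higher in the isthmus in 9 and C1QA in 8. The mean log2 difference within animals was 0.53 ± 0.64 (SD) for C1QC, 0.68 ± 0.68 for CD8A and 0.56 ± 0.55 for C1QA. PTPRC was higher in 4 and lower in 6 of them and CSF1R in 5 and 5, so the direction was not shared by all markers.

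**Figure D4:**
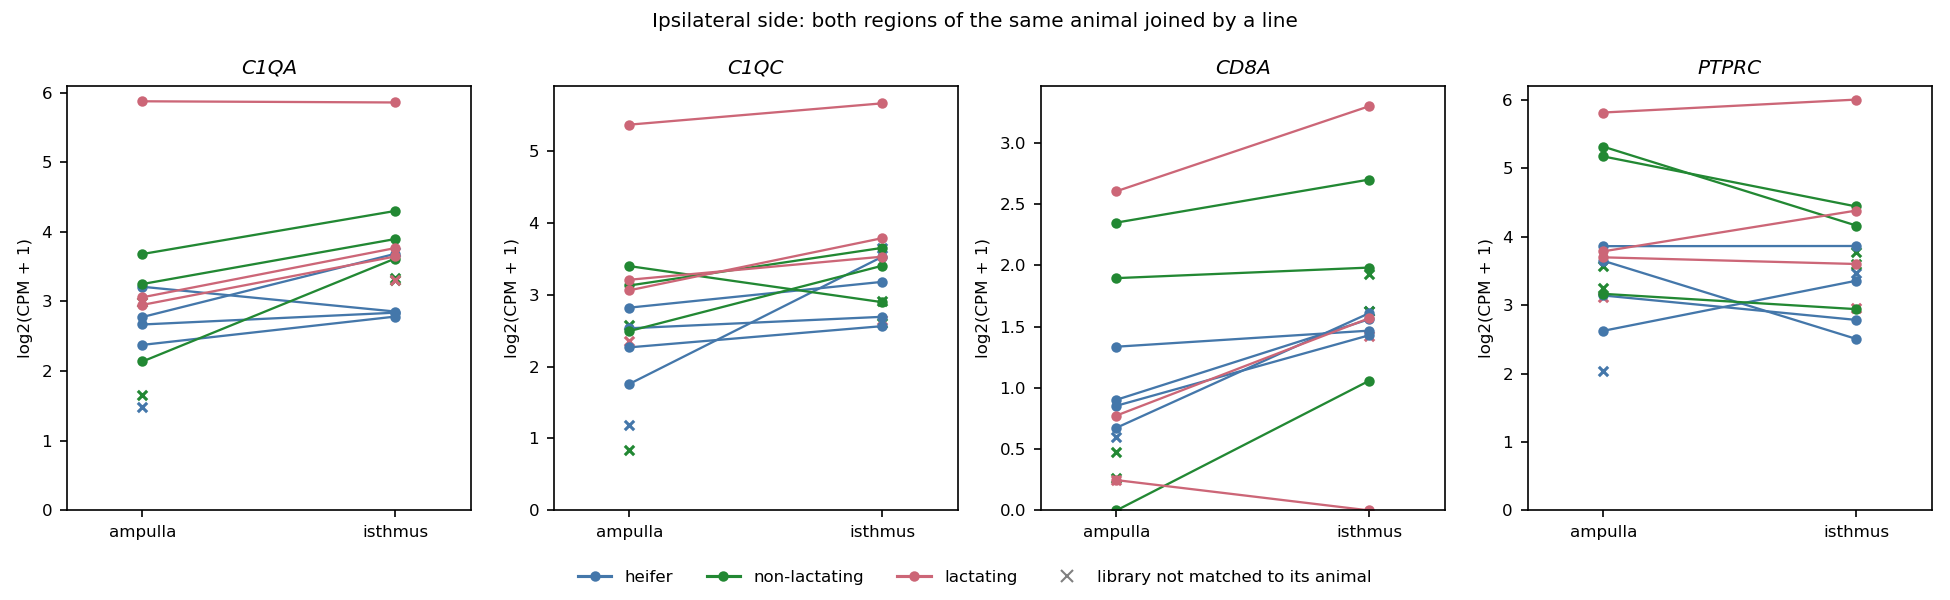
Level of C1QA, C1QC, CD8A and PTPRC, as log2(CPM + 1), in the ampulla and isthmus of the ipsilateral side, with a line for each of the 10 animals with matched libraries and crosses for the libraries of the other 4. The lines of C1QC and CD8A go up in 9 of 10 animals, those of C1QA in 8 and those of PTPRC in 4.

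On the contralateral side 43.5% of 15387 genes were called between the regions and none of the 10 markers. No marker had an unadjusted p under 0.05 there, beside 49.9% of all genes. DESeq2 called none either. The median was -0.259, beside -0.0148 over all genes, and 9 of 10 markers were lower in the isthmus, CD163 by the most (-0.93 ± 0.62, adjusted p = 0.232). With the animal as a block there were again 0 calls among the markers, beside 45.1% of all genes, and without lactating cow A 0, beside 42.1%. The median was smaller in both of these fits, at -0.0178 with the block and -0.0609 without cow A, and in each of them 4 of 10 markers were higher in the isthmus. C1QA was at -0.18 ± 0.39 in the unblocked fit of all animals and at 0.11 ± 0.31 with the block, and CD8A at 0.24 ± 0.41 and 0.42 ± 0.36.

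The wider T cell, macrophage or monocyte and pan-leukocyte lists were mixed between the regions, where the other cell types of the preparation also differed. On the ipsilateral side 4 of 18 tested T cell genes were called, 2 higher in the isthmus, among them TCF7 (2.60 ± 0.21), a transcription factor of T cells that also acts in Wnt signalling, and LCK (0.72 ± 0.21), the kinase at the T cell receptor, and 2 lower, among them CD4 (-1.96 ± 0.29), the co-receptor of helper T cells, which stands in the T cell and the macrophage list. Of 16 macrophage or monocyte genes, 2 were higher, the protease CTSS (0.82 ± 0.18) and the Fc receptor FCGR2B (1.65 ± 0.56), and 2 lower, CD4 among them. Of 22 pan-leukocyte genes, LCP1 (0.70 ± 0.14) and VAV1 (0.84 ± 0.19) were higher and 3 were lower, FYB among them (-1.29 ± 0.20). The median log2 fold change was -0.0859, -0.337 and -0.292 for these 3 lists. Each share of called genes in these 3 lists was below the 50.3% of all genes. Most of the granulocyte list was absent or too low to be tested, and its few tested genes were not mixed ipsilaterally. Of its 14 genes 3 were tested, and all 3 were higher in the isthmus, LTF (3.995 ± 0.44), S100A8 (3.26 ± 0.60) and S100A12 (1.20 ± 0.38). On the contralateral side 2 of them were tested and none was called.

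Contralaterally 5 of 19 T cell genes, 5 of 19 macrophage or monocyte genes and 4 of 23 pan-leukocyte genes were called, beside 43.5%, with TCF7, CTSS, FCGR2B and LCP1 again higher and CD4 and FYB again lower in the isthmus. The 11 genes of ciliated cells were all lower in the isthmus on both sides, and 4 of 5 endothelial genes were, KDR by 3.40 on the log2 scale ipsilaterally. The 4 tested genes of smooth muscle did not move one way. MYH11 was higher in the isthmus (5.13 ± 0.32 ipsilaterally and 4.89 ± 0.39 contralaterally), ACTA2 was lower ipsilaterally (-0.82 ± 0.19, adjusted p = 0.000774) and DES contralaterally (-1.36 ± 0.37, adjusted p = 0.00333), and the medians of the list were -0.401 and -0.223. The part of these other cells in the levels of the markers was not tested. Among chemokines and lymphocyte cytokines, 2 of 13 genes were higher and 4 lower in the isthmus ipsilaterally, and 2 of 15 higher and 7 lower contralaterally. CXCL14, a chemokine of epithelial tissues, was higher in the isthmus (3.48 ± 0.22 ipsilaterally and 2.77 ± 0.21 contralaterally), and CX3CL1, a membrane-bound chemokine for monocytes and T cells, was lower (-1.36 ± 0.15 and -1.12 ± 0.14). Of the ligands of the marker receptors 4 were tested ipsilaterally and 5 contralaterally. TNFSF12, a cytokine bound by CD163, was higher in the isthmus on both sides (0.80 ± 0.18, adjusted p = 0.000576, and 0.85 ± 0.22, adjusted p = 0.00219), CD58, the ligand of CD2, was lower ipsilaterally (-0.28 ± 0.08), and no other was called.

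The sides were then compared over all 14 animals in each region. In the ampulla all 10 markers had lower means on the side of the CL, with a median log2 fold change of -0.49, beside -0.0079 over all genes. None was called, beside 4.99% of 15270 genes. C1QB was the only marker with an unadjusted p under 0.05 (-0.69 ± 0.33, adjusted p = 0.232), beside 19.5% of all genes. With the animal as a block C1QB was called (-0.67 ± 0.20, adjusted p = 0.0409), beside 7.23% of all genes. The block rests on animal labels that do not match for 4 ipsilateral ampulla libraries, and with the block and without these libraries no marker was called (smallest adjusted p = 0.0883). Without lactating cow A in the unblocked fit none was either, beside 4.42%, and DESeq2 called none. The median was -0.275 with the block, where CD163 and CD2 were at 0.07 ± 0.59 and 0.07 ± 0.35, and -0.307 without cow A, where CD2 was at 0.07 ± 0.41. Within the 10 animals with matched libraries, C1QB was lower on the side of the CL in 8, as were CD68 and CD3E, while PTPRC was lower in 5 and CD2 in 3. No gene of the T cell, macrophage or monocyte, pan-leukocyte or dendritic cell lists was called between the sides of the ampulla.

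In the isthmus 9 markers passed the filter, all but CD163. None was called between the sides, beside 28.4% of 15031 genes, and the median was -0.0655. None had an unadjusted p under 0.05, beside 38.8% of all genes. The widest was CD68 (-0.39 ± 0.26, adjusted p = 0.269). With the animal as a block none was called, beside 32.6%, PTPRC (-0.34 ± 0.14, adjusted p = 0.0746) and CD68 (-0.39 ± 0.17, adjusted p = 0.0929) being the closest, and without lactating cow A none was, beside 27.1%. DESeq2 called none. CD68 was lower on the side of the CL in 11 of 14 animals, and CD163, which was not tested, in 13 of 14, at levels close to the limit of detection. Of 18 T cell genes, FOXP3 (0.94 ± 0.31), the transcription factor of regulatory T cells, was higher on the side of the CL and TCF7 (-0.50 ± 0.17) lower. No gene of the macrophage or monocyte or pan-leukocyte lists was called. All 3 tested genes of the granulocyte list were higher on the side of the CL, LTF (2.99 ± 0.49), S100A8 (2.43 ± 0.62) and S100A12 (1.33 ± 0.47). Only these 3 of its 14 genes were tested. Other granulocyte genes were hardly read in the isthmus, with S100A9 at 0 in 20 of 28 libraries and CSF3R in 18. S100A8 had means of 4.69 ± 6.21 CPM (SD) on the side of the CL and 0.962 ± 1.87 CPM on the other. The part of granulocytes in these values was not tested.

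Within single metabolic groups no marker was called between the sides either, by edgeR or DESeq2. In the isthmus the background was 10% of all genes in heifers, 5.11% in non-lactating cows and 0.187% in lactating cows. PTPRC in heifers was the only marker with an unadjusted p under 0.05 there, at 8.68 ± 3.53 CPM on the side of the CL and 13.1 ± 1.80 CPM on the other (log2 fold change -0.62 ± 0.26, adjusted p = 0.147). In heifers 27.2% of all genes were under that value in the isthmus. The median was -0.388 for 7 markers in heifers, -0.184 for 9 in non-lactating cows and 0.434 for 8 in lactating cows. In the ampulla 0% of all genes were called in heifers, 0.0947% in non-lactating cows and 0% in lactating cows. All 8 tested markers were lower on the side of the CL in heifers (median -0.634) and all 9 in lactating cows (-0.484), and 5 of 9 in non-lactating cows (-0.2). C1QB in heifers was the only one with an unadjusted p under 0.05, at 4.53 ± 2.16 CPM against 11.4 ± 6.47 CPM (-1.32 ± 0.40, adjusted p = 0.363). In heifers 9.2% of all genes were under that value in the ampulla.

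Whether the difference between sides itself differed was tested as an interaction. Between the metabolic groups no marker was called in the isthmus (0% of all genes called) or the ampulla (0%), with an adjusted p of 1 for the marker nearest to the threshold, and none had an unadjusted p under 0.05. Between the regions none of the 10 was called, beside 5.97% of all genes, and again none had an unadjusted p under 0.05, beside 20.4%. The widest interaction was CD8A, at 0.80 ± 0.66 on the log2 scale (adjusted p = 0.542). DESeq2 called no marker in any of the 3. The different medians of the groups are thus values side by side, without a difference that passed the test.

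The markers varied together over the 56 libraries. After each gene was centred on its condition, the correlation of log2 CPM between PTPRC and the T cell markers was 0.72 to 0.831 (3 pairs, median 0.802), among the T cell markers 0.603 to 0.766 (3 pairs, median 0.694), and among the macrophage markers 0.0991 to 0.868 (15 pairs, median 0.514). Across macrophage and T cell markers the median of 18 pairs was 0.641, which lay above the median among the macrophage markers and below that among the T cell markers. Without lactating cow A these medians were 0.697, 0.563, 0.298 and 0.479. The libraries share animals and, in part, depth, so these values describe the libraries and carry no p.

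**Figure D5:**
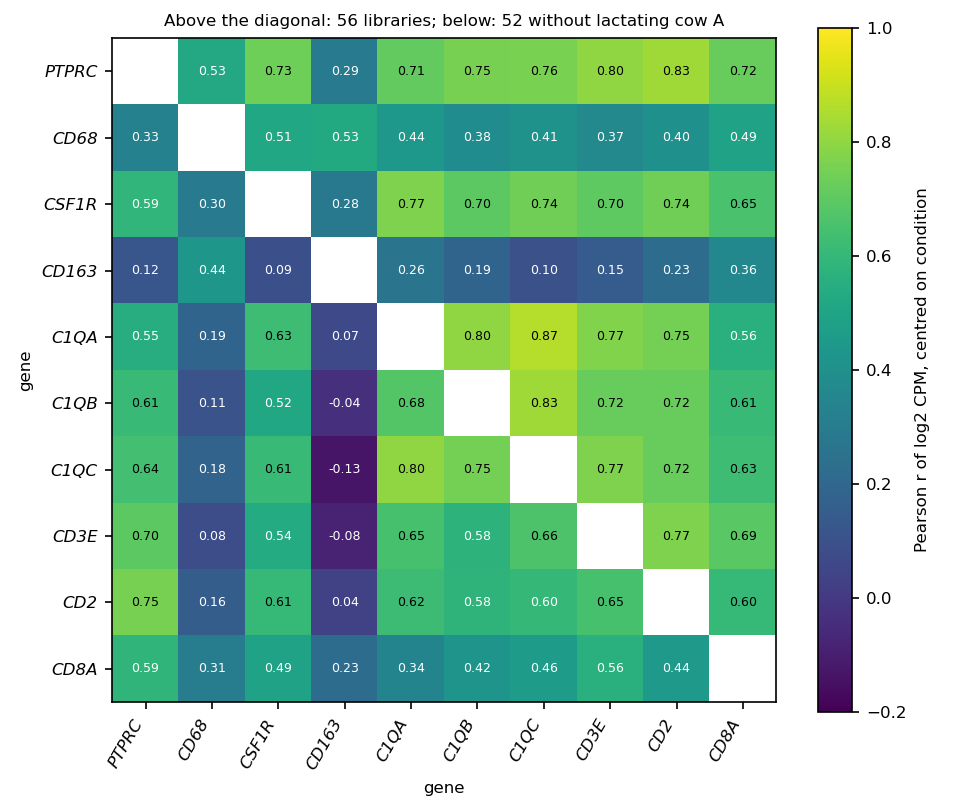
Pearson correlation of log2 CPM between the 10 markers, each gene centred on its condition, over 56 libraries above the diagonal and over 52 without lactating cow A below it. C1QA and C1QC are the closest pair, at 0.868 with cow A and 0.803 without it, and the row and column of CD163 are the darkest.

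The genes most like each marker were looked up among 12770 genes with a symbol. PTPRC was most like GIMAP7 (r of 0.894), a GTPase of lymphocytes, CD53 (0.870), a membrane protein of leukocytes, and LAPTM5 (0.856), a lysosomal protein of leukocytes. LAPTM5 was also among the first 3 for CSF1R, C1QA, CD3E, CD2 and CD8A. C1QA was most like C1QC (0.868), and C1QB and C1QC were each like MPEG1 (0.812 and 0.837). CD3E was also like CCL5 (0.812), a chemokine that T cells release, and CD2 like CD52 (0.836). CD68 and CD163 had less close neighbours, led by CRLF3 (0.744) and CSGALNACT2 (0.654). Without cow A the first neighbour of PTPRC stood at 0.836 and that of CD68 at 0.721.

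Whether an animal kept its level from one side to the other was described over the 14 animals in the isthmus, where all libraries matched. C1QB had a Pearson r of 0.869 between the sides (Spearman 0.842), CD3E 0.797 (0.591), PTPRC 0.786 (0.631) and C1QC 0.407 (0.398). Without cow A these were 0.763 (0.802), 0.553 (0.489), 0.565 (0.538) and -0.0397 (0.247). Among the other 13 animals C1QB thus kept its order between the sides and C1QC did not.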

How the data were processed

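Single-end reads of 56 libraries were aligned by the authors to the cattle genome by TopHat2 (version 2.0.13) and counted on genes with HTSeq (version 0.6.1), by strand. The deposited values are raw read counts per gene, without normalization. The rows that name no gene were removed. Alignments without a gene made up 28.3 to 50.1% of the total, alignments to several places 37.4 to 61.3%, and 8.66 to 13.7% lay on genes. Columns were assigned to metabolic group, region and side by their names.

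Counts were normalised by TMM in R (version 4.3.3) with edgeR (4.0.16), and CPM use these sizes. In each fit, filterByExpr selected the genes (minimum count 10). Each comparison used edgeR's quasi-likelihood F test, with Benjamini-Hochberg adjustment over all genes tested and a threshold of 0.05. Fits between sides or regions over all animals had the metabolic group as a term, and the other fits used their own groups only. SE was taken from F as |log2 fold change| over its square root. Log2 CPM for correlations used a prior count of 2. The fit was tested on simulated data first. Alternatives were RLE size factors, DESeq2 (1.42.0), no filter, the animal as a block, the mismatched libraries left out and each animal left out.

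The animal numbers in the column names were used to pair the libraries. They were taken to mark samples of the same animal, which no sample label states. By expression 52 of 56 libraries matched their own animal best. The genes of that check were picked with the same numbers outside the ipsilateral ampulla, so it was independent of them only in that tissue. The paper's methods name no pairing in the test, so the main fits are unblocked. The markers and gene lists were chosen with earlier results of these data known. Named genes are all 10 markers, up to 3 called genes per list with the smallest p, and the 3 genes most correlated with each marker. Further genes of the lists, named for lactating cow A or to describe the preparation, were chosen after their values were seen.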

Additional observations from a re-analysis of the deposited data

Results flagged for a closer look

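In 21 of 120 groups of 4 or 5 libraries (17.5%, 10 markers in 12 conditions), the highest or lowest library lay further from the rest than Dixon's 95% limit allows. For normally distributed values chance flags about 1 in 20 groups. The limit was applied to CPM without a log scale, where that rate need not hold at low counts. The 10 markers are also not independent of each other. In 16 of them the library was that of lactating cow A, high in each case.

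In lactating cow A, PTPRC stood apart in the ipsilateral ampulla (55.2 CPM) and the contralateral ampulla (83.8 CPM). CD68 did so in the ipsilateral ampulla (9.12 CPM). C1QA stood apart in the ipsilateral ampulla (57.7 CPM), the contralateral ampulla (72.7 CPM) and the ipsilateral isthmus (57.0 CPM), and so did C1QC (40.2, 65.6 and 49.5 CPM in the same tissues). C1QB stood apart in the contralateral isthmus (34.1 CPM). Among the T cell markers, CD3E stood apart in the ipsilateral ampulla (9.12 CPM), contralateral ampulla (16.1 CPM) and ipsilateral isthmus (21.0 CPM), CD2 in the contralateral ampulla (23.0 CPM), and CD8A in the ipsilateral ampulla (5.09 CPM) and contralateral isthmus (5.39 CPM).

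The contralateral ampulla library of heifer E was high among heifers for C1QA (19.2 CPM), C1QB (22.9 CPM) and C1QC (13 CPM). Non-lactating cow B had a high CD163 in the ipsilateral ampulla (2.56 CPM), in a library whose profile matched heifer B, and a low C1QB in the contralateral ampulla (3.96 CPM).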

How the results depend on the processing

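Of 151 alternative fits of the 25 comparisons, 144 called 0 of the markers, as the reported fits did, and of 238 fits that left out 1 animal 234 did. Between the regions on the ipsilateral side the count of called markers was 3 with the animal as a replicate block, 2 with the block and without the mismatched libraries, 1 with DESeq2, and 0 to 3 when each animal was left out. Between the sides of the ampulla the block gave 1 call, and 0 without the mismatched libraries, and it changed no other call. Between lactating cows and heifers DESeq2 called 2 in the ipsilateral isthmus and 1 in the ipsilateral ampulla, and between lactating and non-lactating cows in the contralateral ampulla the absence of a filter gave 1. The cause of these changes was not tested. Counts of 3 reads or fewer limit CD163 and CD8A most, and the metabolic groups hold only 4 or 5 animals each.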
